A study of Homo sapiens with 24 samples.

Results

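The guidance and growth signalling genes BDNF, EFNB2, NRP1 and NKD1 were followed across HGC27 cells, a gastric carcinoma line, through 4 entries of the count files: BDNF-AS for BDNF, ENSG00000284966 for EFNB2, ENSG00000238258 for NRP1 and ENSG00000205414 for NKD1. They are 4 of 61578 entries, and all 4 were among the 12822 that passed the count filter. They were chosen by their measured read counts, for large differences between cell lines in these libraries, so their values in one line against another are given as descriptions with no test. RNA came from parental cells, from a guide control line labelled wild type (SGCTRL) and from SG12 and SG21, both labelled as TMEM97 knockouts. Each line was grown for 3 days in medium with fetal bovine serum (FBS) or with lipoprotein-deficient serum (LPDS, which supplies little cholesterol), with 3 libraries in each of the 8 groups. The labels call the 3 samples of a group independent and biological, and say no more on how they were separated. The guide sequences, where they cut, and whether a line is a single clone are not given in the sources used here, and no group has TMEM97 put back.

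BDNF (brain-derived neurotrophic factor) is a secreted neurotrophin that signals through the TrkB and p75 receptors. Ephrin-B2, the product of EFNB2, is a membrane-bound ligand of EphB receptors and steers cells and growing vessels by contact, and neuropilin-1 (NRP1) is a co-receptor for class 3 semaphorins and for VEGF-A. NKD1 binds Dishevelled and dampens Wnt signalling, and it is itself a known target of that pathway in many cells.

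In these files a gene was seen mainly through the entry that lies opposite to it. The 9416 protein-coding entries that have nothing annotated opposite to them had a median level of 0.283 counts per 1000000 reads on genes (CPM) and a 90th percentile of 5.71 CPM, while the rows named BDNF, EFNB2, NRP1 and NKD1 held 11%, 0.238%, 2.18% and 10.3% of the CPM of the rows opposite them. Each gene is therefore read here through its opposite row, and its level is the level of the stretch which that row covers. The map of exons shows how little of each gene that is.

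**Figure D1:**
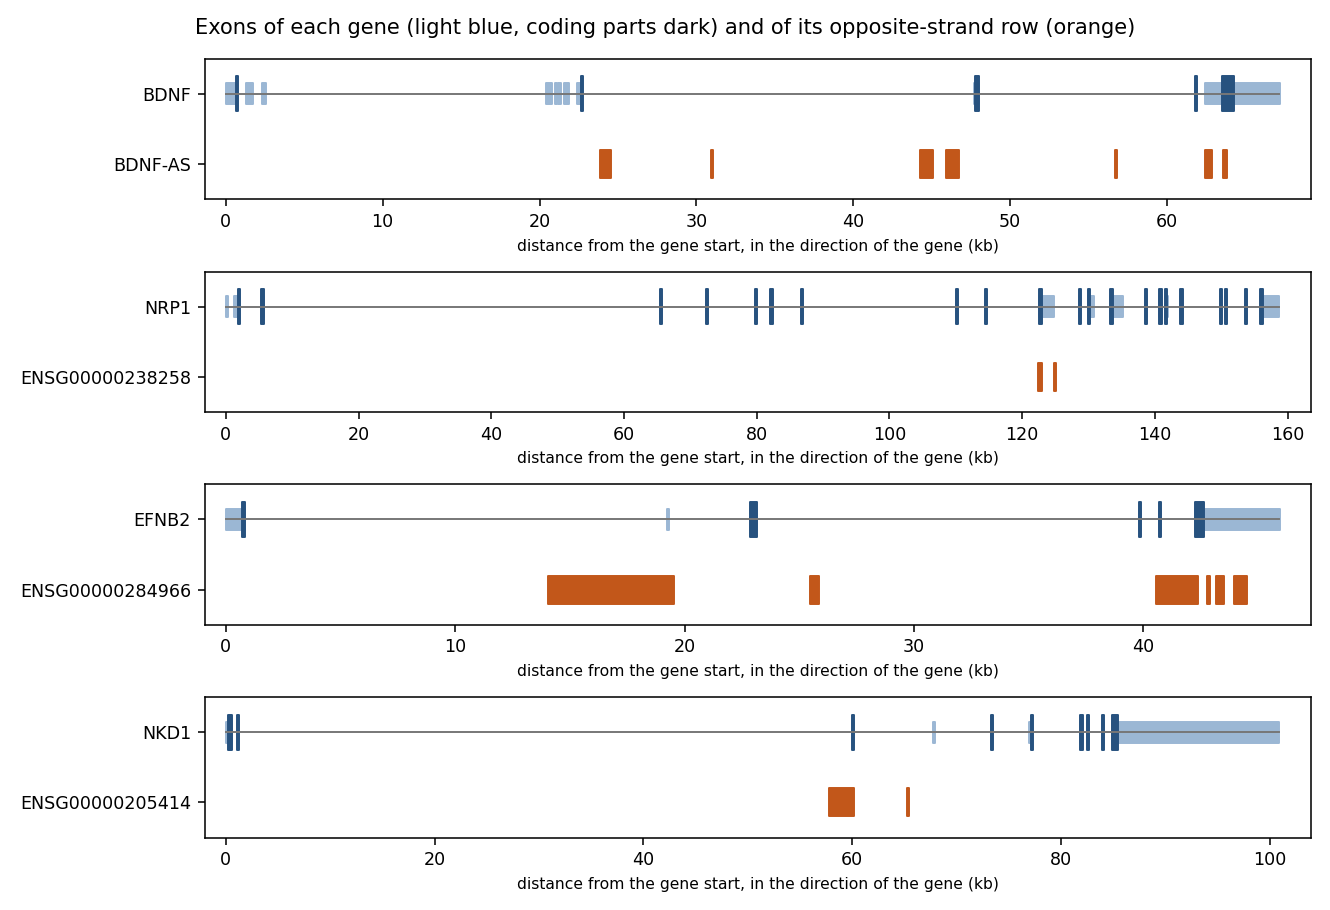
Exons of the 4 genes (light blue, coding parts dark) and of the rows read for them (orange), drawn by distance from the gene start in kb. The row for NRP1 lies mostly on exon sequence, and the rows for BDNF, EFNB2 and NKD1 lie mostly on introns.

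Exons of a gene are here those of all its annotated transcripts together, 14 for NRP1. The row for NRP1 had 71.8% of its 781 exon bases inside NRP1 exons, at chr10:33211277-33213804 within the gene at chr10:33177492-33336262 (hg38, minus strand). For BDNF (chr11:27654893-27722058, minus strand) the share was 18.8% of 3726 bases, for EFNB2 (chr13:106489731-106535662, minus strand) 15% of 8771 bases, and for NKD1 (chr16:50548330-50649249, plus strand) 2.7% of 2469 bases. The remainder was intron, apart from 490 bases of BDNF-AS beyond the end of BDNF. Spliced and unspliced RNA cannot be told apart in these rows, and in cultured cells taken whole, fewer cells with a transcript and less of it per cell cannot be told apart either. Coding stretches through which the 4 genes were counted are printed 5′ to 3′ on the strand of the gene, from GENCODE 29 transcripts on hg38, since the levels below rest in part on them. Capitals are bases under the counted row, and lower case is the neighbouring part of the same coding exon that was not counted. The BDNF stretch encodes part of the propeptide, which is cut from the mature factor. In order they come from chr11:27658211-27658340, chr13:106494881-106494994, chr13:106493265-106493428, chr10:33213418-33213717 and chr16:50608294-50608360.
BDNF: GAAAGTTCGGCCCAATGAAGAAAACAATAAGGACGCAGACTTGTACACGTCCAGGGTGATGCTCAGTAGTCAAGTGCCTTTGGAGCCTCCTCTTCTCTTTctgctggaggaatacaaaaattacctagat
EFNB2 first stretch: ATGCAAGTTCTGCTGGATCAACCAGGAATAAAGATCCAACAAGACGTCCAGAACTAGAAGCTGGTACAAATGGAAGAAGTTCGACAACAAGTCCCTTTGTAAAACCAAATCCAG
EFNB2 second stretch: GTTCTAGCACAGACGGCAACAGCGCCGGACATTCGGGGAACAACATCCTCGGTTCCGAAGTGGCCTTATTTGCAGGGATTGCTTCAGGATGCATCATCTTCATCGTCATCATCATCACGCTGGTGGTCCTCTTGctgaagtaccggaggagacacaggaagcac
NRP1: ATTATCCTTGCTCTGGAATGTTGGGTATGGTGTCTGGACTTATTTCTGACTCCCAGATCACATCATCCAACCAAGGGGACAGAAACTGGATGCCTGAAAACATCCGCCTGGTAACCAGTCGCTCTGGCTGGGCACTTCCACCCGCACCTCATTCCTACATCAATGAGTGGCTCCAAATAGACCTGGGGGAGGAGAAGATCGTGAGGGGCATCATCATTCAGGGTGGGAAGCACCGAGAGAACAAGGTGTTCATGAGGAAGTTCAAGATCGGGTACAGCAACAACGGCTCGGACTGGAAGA
NKD1: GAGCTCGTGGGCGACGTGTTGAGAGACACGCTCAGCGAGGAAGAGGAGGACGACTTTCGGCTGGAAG
The printed run of NRP1 is capital throughout, as are the first EFNB2 stretch and the NKD1 stretch, because the row covers each of these runs whole. The runs of BDNF and NRP1 are parts, with 100 of the 222 BDNF coding bases under the row and 300 of the 480 NRP1 coding bases. Those 480 are over all NRP1 transcripts, and in the transcript printed 332 coding bases lie under the row. The 67 bases of NKD1 are its only coding bases under the row, against 2402 bases of intron.

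Libraries held 2399212 to 5543678 reads on genes, which were a small part of the 44077624 to 101673235 uniquely aligned reads, as 94.3% to 94.6% of these fell on no gene. The 4 rows had 68 to 2475 reads in a library. The share of ambiguous reads was low, 2.10% to 2.24%, in the 6 SGCTRL libraries and in replicates 2 and 3 of SG21 in LPDS, and 2.58% to 3.15% in the remaining 16 libraries, so the split runs largely with SGCTRL, and parental values are given beside those of SGCTRL. SG21 in LPDS is the 1 group with libraries of both kinds, and a term for the split rests on its 3 libraries. With that term the log2 differences of SG12 from SGCTRL in FBS were 2.21 for BDNF, 2.17 for NRP1, 2.12 for NKD1 and 0.67 for EFNB2, against 2.00, 1.96, 2.18 and 0.39 without it. TMEM97, read through the row of IFT20, was at 48.7 to 56.7 CPM in the SG12 FBS libraries, 73.8 to 77.4 in SG21, 118 to 140 in SGCTRL and 88.8 to 120 in parental cells. In LPDS it was at 176 to 208 CPM in SG12, 119 to 137 in SG21, 154 to 166 in SGCTRL and 140 to 170 in parental cells, so the libraries labelled knockout in SG12 were below both controls in FBS and above them in LPDS. Of 8 epithelial markers, 3 could be read and none passed the 5.71 CPM floor (CDH1 1.09 CPM, KRT8 0.233 and KRT18 0.335), although the cells are labelled epithelial, while 6 of 8 mesenchymal markers passed it, VIM at a mean of 23700 CPM. No neuronal, endothelial, leukocyte, fibroblast or gastric marker had an opposite row to be read through. Of the markers without such a row, those above the floor under their own names included CLDN4 (39.4 CPM) and ELF3 (9.27), both epithelial, the fibroblast genes COL1A1 (82.9) and COL3A1 (61.5), the mesenchymal FN1 (11), the leukocyte gene CSF1R (8.45) and the neuronal RBFOX3 (10.2), SYN1 (9.62) and TUBB3 (6.21). If genes are counted through the entry opposite to them, these own-name levels do not measure the markers.

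All 4 genes were at their highest in SG12 cells in FBS, and all 4 were lower in that line in LPDS. The SG12 FBS libraries took part in the choice of the genes, so the values of LPDS against FBS in SG12 are descriptions with no test. Libraries of the other lines entered that comparison of groups as well. The p-values given below for these 4 genes in those lines are therefore not independent of the choice. On the log2 scale NRP1 was at -1.10 ± 0.13 (SE of the edgeR fit, 2.15-fold lower), NKD1 at -1.07 ± 0.16 (2.10-fold lower), BDNF at -0.81 ± 0.16 (1.76-fold lower) and EFNB2 at -0.52 ± 0.12 (1.44-fold lower). The 3 LPDS libraries lay below the 3 FBS libraries for each of the 4, as they did for 18% of all entries, and nothing is read from that count.

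**Figure D2:**
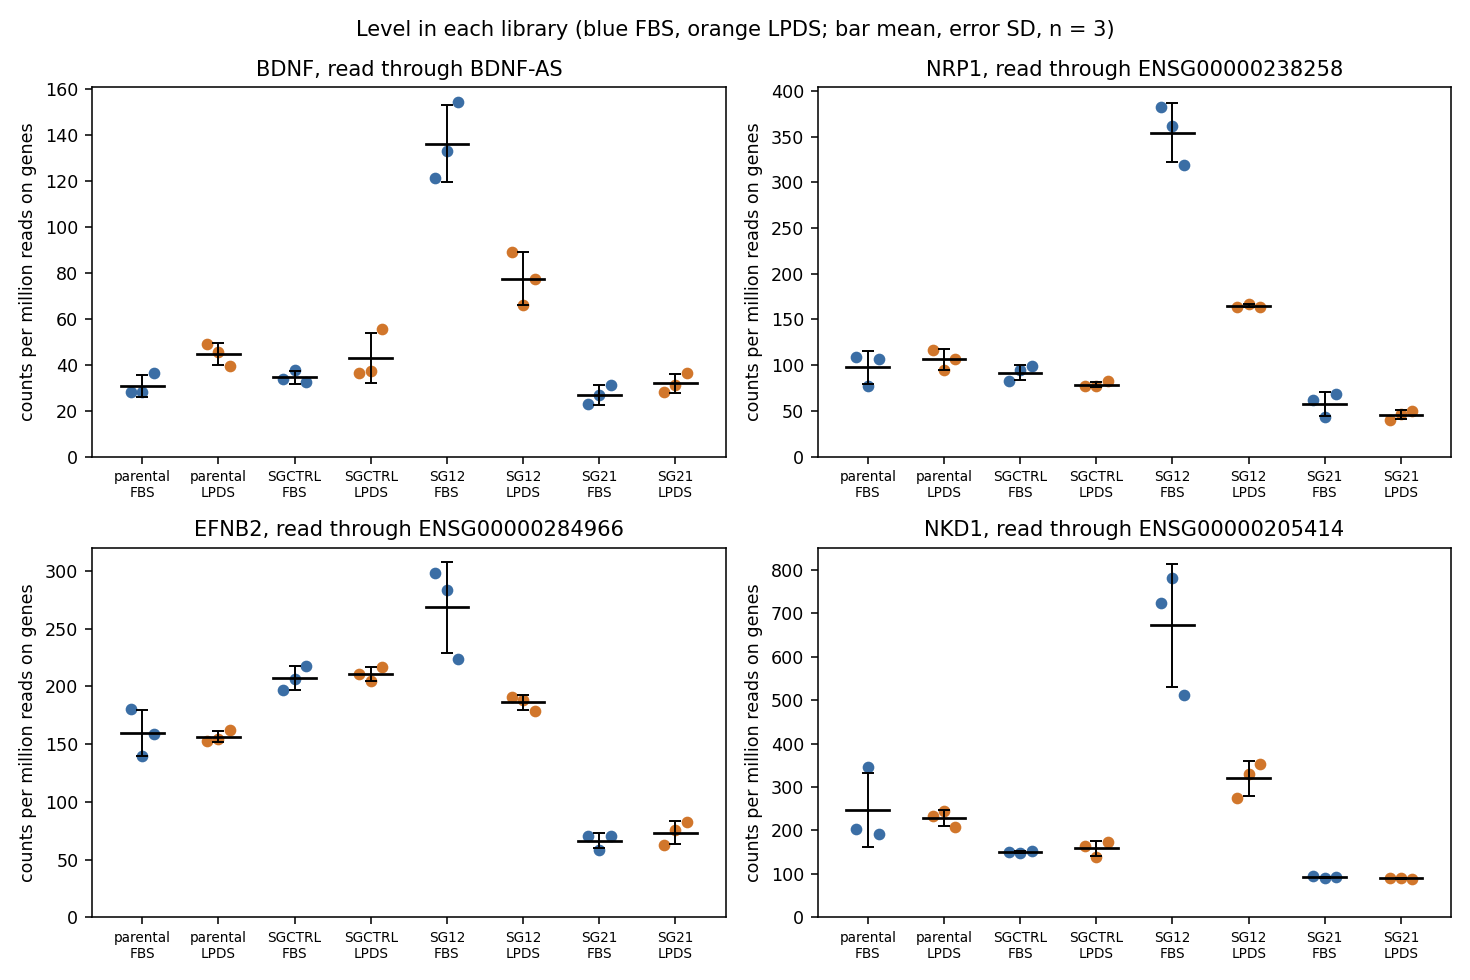
CPM of the 4 genes in each of the 24 libraries (points), with the mean (bar) and SD (error bar, n = 3) of each group and FBS in blue, LPDS in orange. SG12 FBS is the top group in every panel, and SG21 holds the lowest group in every panel.

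Among the ligands, BDNF was at 121, 133 and 154 CPM in the 3 SG12 FBS libraries and at 88.9, 65.9 and 77.3 in SG12 LPDS. In SGCTRL it was at 33.6, 37.8 and 32.4 CPM in FBS and 36.2, 37.1 and 55.6 in LPDS, and in parental cells at 28.3, 27.9 and 36.3 in FBS and 48.9, 45.6 and 39.5 in LPDS. SG21 libraries were at 22.7, 26.8 and 31.2 CPM in FBS and 27.9, 31.2 and 36.4 in LPDS. Each of the 6 SG12 libraries was above each of the other 18, and the remaining 6 groups overlapped their neighbours in the order of means. By the edgeR fit, from which all folds here come, the SG12 mean in FBS of 136 ± 16.8 CPM (SD, n = 3) was 3.99-fold that of SGCTRL (34.6 ± 2.85) and 4.57-fold that of parental cells (30.8 ± 4.71), and in LPDS it was 1.80-fold that of SGCTRL and 1.78-fold that of parental cells. SG21 was 1.28-fold below SGCTRL in FBS, but its libraries overlapped those of parental cells there.

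The response of BDNF to LPDS had opposite signs in parental and SG12 cells. In parental cells every LPDS library was above every FBS library, where 10.3% of all entries were, and the log2 difference of 0.55 ± 0.18 had an adjusted p of 0.0567 (edgeR quasi-likelihood test, Benjamini-Hochberg adjustment over 12822 entries). That misses the 0.05 threshold, and over 14 other settings the adjusted p ran from 0.0426 to 0.257. Parental libraries entered the choice of the gene, so no call is made from this p or from where it crosses 0.05. It was 0.0444 without parental FBS replicate 3, the highest of the 3 FBS libraries, where the difference was 0.66. SGCTRL (0.33 ± 0.17, adjusted p = 0.382) and SG21 (0.20 ± 0.18, adjusted p = 0.633) had overlapping libraries, with SGCTRL LPDS replicate 3 at 55.6 CPM and the other 2 within the FBS range. Without SGCTRL LPDS replicate 3 the value in SGCTRL was 0.11.

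EFNB2 differed from the other 3 genes in where SG12 stood. Its SG12 FBS libraries were at 298, 283 and 224 CPM and its SG12 LPDS libraries at 191, 188 and 179. SGCTRL was at 197, 206 and 218 CPM in FBS and at 211, 205 and 217 in LPDS, and parental cells at 180, 140 and 159 in FBS and at 153, 154 and 162 in LPDS. SG21 was at 70.0, 58.6 and 70.0 CPM in FBS and at 62.4, 75.4 and 82.2 in LPDS. All 6 SG21 libraries were therefore below all 18 others, and in SG12 the third FBS library lay close above the SGCTRL range.

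In FBS, EFNB2 in SG12 (268 ± 39.0 CPM) was 1.31-fold that of SGCTRL (207 ± 10.7) and 1.72-fold that of parental cells (160 ± 20.4). Without SG12 FBS replicate 3 the log2 difference from SGCTRL was 0.60, against 0.39 with it. In LPDS it was 1.12-fold below SGCTRL, with every SG12 library under every SGCTRL library, and 1.22-fold above parental cells, again with no overlap: the sign depends on the control line. SG21 was 3.14-fold below SGCTRL in FBS and 2.97-fold below it in LPDS, and 2.39-fold and 2.17-fold below parental cells. LPDS against FBS gave EFNB2 log2 differences of -0.02 ± 0.12 in parental cells, 0.03 ± 0.12 in SGCTRL and 0.11 ± 0.13 in SG21 (edgeR adjusted p = 0.934, 0.945 and 0.718).

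The receptor NRP1 was at 382, 362 and 319 CPM in the SG12 FBS libraries and at 164, 167 and 164 in SG12 LPDS. Parental cells were at 109, 76.7 and 107 CPM in FBS and 117, 94.9 and 107 in LPDS, and SGCTRL at 82.8, 94.3 and 98.6 in FBS and 76.9, 77.2 and 82.3 in LPDS. SG21 was at 62.3, 43.2 and 68.4 CPM in FBS and 40.4, 47.0 and 50.1 in LPDS. The lines stood in 3 tiers without overlap, SG12 on top, parental and SGCTRL cells between, and SG21 at the bottom. SG12 was 3.90-fold above SGCTRL in FBS and 2.11-fold in LPDS, and 3.74-fold and 1.59-fold above parental cells. SG21 was 1.59-fold below SGCTRL in FBS and 1.77-fold in LPDS.

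The mean difference of LPDS against FBS over the 4 lines was -0.39 ± 0.07 for NRP1, -0.29 ± 0.08 for NKD1, -0.10 ± 0.06 for EFNB2 and 0.07 ± 0.09 for BDNF on the log2 scale. This mean includes SG12, whose FBS libraries took part in the choice of the genes, and is given without a test. In the other lines, for NRP1 the log2 difference was 0.13 ± 0.14 in parental cells, -0.21 ± 0.14 in SGCTRL and -0.37 ± 0.15 in SG21 (adjusted p = 0.652, 0.529 and 0.176). In SGCTRL the LPDS libraries were all below the FBS libraries, as for 11.8% of all entries. Without SG21 FBS replicate 2, the lowest SG21 FBS library at 43.2 CPM, the difference in SG21 was -0.57 with an adjusted p of 0.0228, where the 14 settings ran from that value to 0.618. SG21 libraries entered the choice of the gene too, so no call is made from these p-values.

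NKD1, the Wnt inhibitor, was at 724, 782 and 513 CPM in SG12 FBS and at 275, 331 and 354 in SG12 LPDS. Parental cells were at 204, 345 and 192 CPM in FBS and 234, 245 and 209 in LPDS, and SGCTRL at 151, 148 and 153 in FBS and 163, 139 and 174 in LPDS. SG21 was at 94.0, 90.2 and 91.6 CPM in FBS and at 89.6, 90.9 and 88.1 in LPDS. The SG21 libraries ran only from 88.1 to 94.0 CPM, whereas parental FBS replicate 2 stood far above the other 2 of its group and reached the SG12 LPDS range. In FBS, SG12 was 4.52-fold above SGCTRL and 2.79-fold above parental cells, and in LPDS 2.03-fold and 1.43-fold. SG21 was 1.65-fold below SGCTRL in FBS and 1.83-fold in LPDS, and SGCTRL was itself 1.62-fold and 1.42-fold below parental cells. Without parental FBS replicate 2, SGCTRL was 0.38 below parental cells on the log2 scale in FBS, against 0.70 with it. LPDS against FBS gave log2 differences of -0.10 ± 0.16 in parental cells, 0.08 ± 0.16 in SGCTRL and -0.07 ± 0.17 in SG21 (adjusted p = 0.774, 0.892 and 0.889). Without parental FBS replicate 2 the value in parental cells was 0.21, of the opposite sign.

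**Figure D3:**
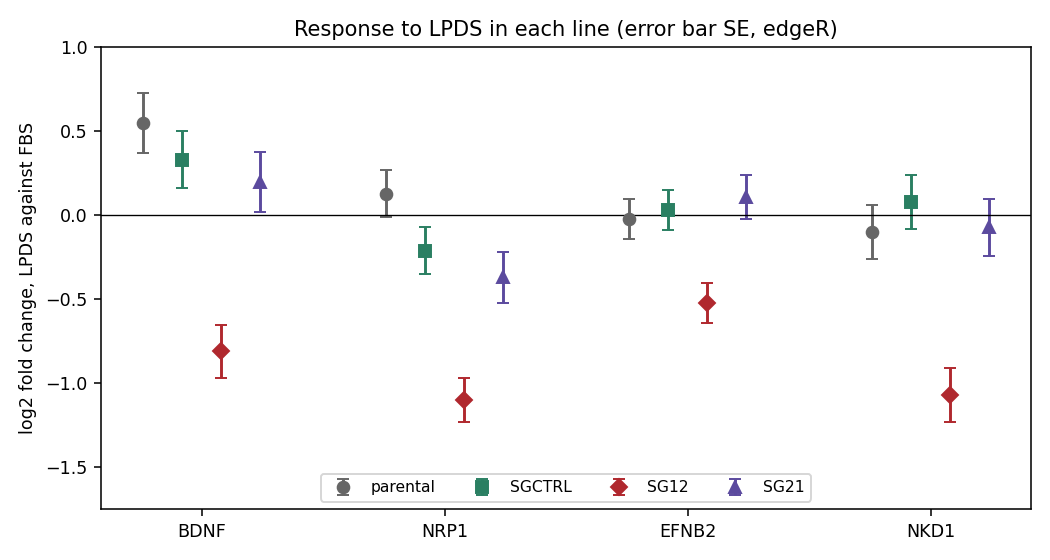
Log2 difference of LPDS against FBS for each gene in each of the 4 lines, from edgeR, with SE as error bars. The 4 SG12 values (red diamonds) lie between -1.10 and -0.52, and the largest value is 0.55 for BDNF in parental cells.

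With edgeR, 0 of the 4 genes passed the LPDS test in parental cells, SGCTRL or SG21, where 4.55%, 2.33% and 3.83% of all entries did. At an unadjusted p under 0.05 there were 1, 0 and 1, and DESeq2 passed 0 in each of these lines. Libraries of these lines also entered the choice of the genes, so nothing is read from these counts. The LPDS response of SG12 minus that of SGCTRL was -1.14 ± 0.23 for BDNF, -0.56 ± 0.16 for EFNB2, -0.89 ± 0.19 for NRP1 and -1.16 ± 0.23 for NKD1 on the log2 scale. Against parental cells it was -1.36 ± 0.24, -0.50 ± 0.16, -1.23 ± 0.19 and -0.97 ± 0.22. SG21 minus SGCTRL gave -0.13 ± 0.25, 0.08 ± 0.17, -0.16 ± 0.20 and -0.15 ± 0.24. These differences use the same FBS libraries that chose the genes and are given without a test.

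By separation of libraries, all 4 genes were higher in SG12 than in SGCTRL in FBS, where 17.9% of all entries were, and all 4 were higher than in parental cells, where 15.9% were. In LPDS, 3 of the 4 were higher in SG12 than in SGCTRL and 1, EFNB2, was lower (14.9% and 16.6% of all entries), and all 4 were higher than in parental cells (13.5%). All 4 were lower in SG21 than in SGCTRL in FBS (15.7%) and 3 of 4 in LPDS (11.9%), and 3 and 4 of 4 were lower than in parental cells (19.3% and 12.2%). The rule that chose the genes used these contrasts, so nothing is read from the counts. The summed level of the 6 mesenchymal markers was 11600 to 16700 CPM in the 6 SG21 libraries and 22300 to 33300 CPM in the other 18, and VIM made up nearly all of it. Without VIM the sum of the other 5 was 244 to 328 CPM in SG21 and 372 to 676 in the other 18. The part of these markers in the SG21 values was not tested.

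Other rows at the same loci are given as levels. Where a gene is counted through the entry opposite to it, the row under its own name counts RNA of the other strand. The rows named after the genes are therefore not a second measure of them. The row named NKD1 was at 60.9 ± 5.10 CPM in SG12 FBS and 27.9 ± 5.30 in SG12 LPDS, a log2 difference of -1.13 ± 0.24 (SE). A second entry inside NKD1, ENSG00000260029, lies wholly in intron sequence at chr16:50551824-50553940, 3.49 kb after the start of the gene, whereas the row used for NKD1 begins 57.7 kb after it. This second row was at 50.9, 56.9 and 83.7 CPM in the SG12 FBS libraries and at 55.3, 67.2 and 65.5 in SG12 LPDS, a log2 difference of -0.03 ± 0.23. The same SG12 FBS libraries are in these values, which are given without a test. So within SG12 the row near the start of NKD1 had overlapping FBS and LPDS libraries and the row farther in did not. The difference between the 2 rows was not tested. In the SG12 FBS group both were above the other lines: the second row was at 63.8 ± 17.5 CPM in SG12, 30.8 ± 2.27 in SGCTRL, 25.2 ± 10.1 in parental cells and 17.9 ± 2.03 in SG21.

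**Figure D4:**
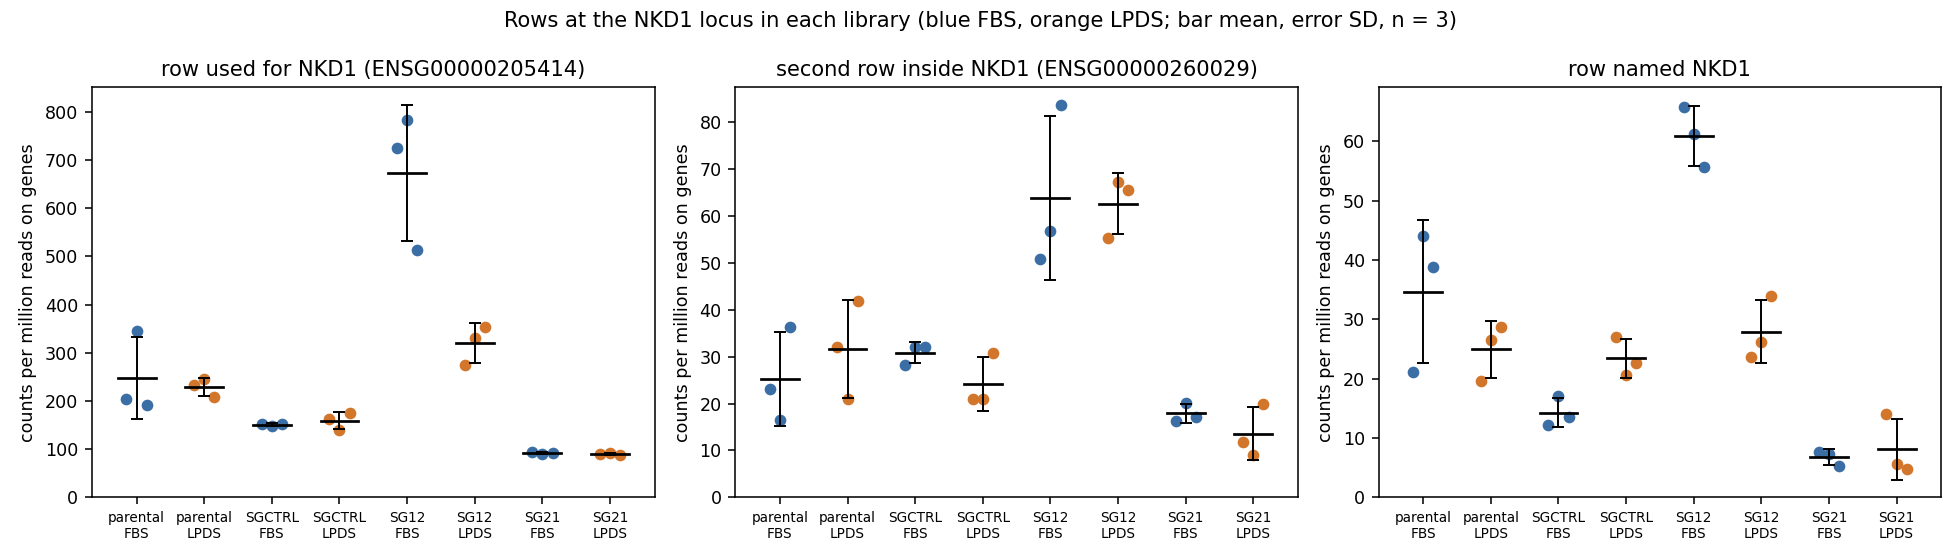
CPM of 3 rows at the NKD1 locus in the 24 libraries (points; bar mean, error bar SD, n = 3 per group, FBS blue, LPDS orange, each panel with its own axis). In SG12 the left and right rows are lower in LPDS and the middle row stays between 50.9 and 83.7 CPM in both media.

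The rows named BDNF and NRP1 were shallow. The row named BDNF was at 12.3 ± 0.603 CPM in SG12 FBS and 7.89 ± 3.77 in SG12 LPDS, with a log2 difference of -0.64 ± 0.40. Its other groups had means of 2.62 to 5.69 CPM. In FBS the row named BDNF was at 4.67, 6.07 and 6.02 CPM in SG21 and at 4.07, 3.85 and 1.91 in SGCTRL. So this row was higher in SG21 than in SGCTRL, with 14 to 24 reads a library against 7 to 12, whereas BDNF-AS was lower. The row named NRP1 was at 5.89 ± 1.73 and 4.70 ± 2.88 CPM (-0.33 ± 0.55) in the same 2 SG12 groups, near the 5.71 CPM floor. The row named EFNB2 had group means of at most 0.798 CPM and was not tested.

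Related genes were taken from 5 lists of 241 genes, chosen with earlier results of these data known. Of these, 34 could be read through an opposite row and are called pathway genes below: 5 of 30 neurotrophin genes, 6 of 50 semaphorin and neuropilin genes, 5 of 35 ephrin and Eph genes, 13 of 91 Wnt genes and 5 of 35 netrin, slit and other guidance genes. The last list is of other guidance families and not of a pathway of BDNF, NRP1, EFNB2 or NKD1. The exon overlap of a pathway gene with its opposite row ran from 69 bases (EPHB4) to 7634 (FARP1). It was 78 bases for UNC5C, 136 for ADAM10 and 147 for NRP2. In SG12, LPDS raised 3 and lowered 9 of the 34 (35.3%, against 22.5% of all entries), with a median log2 difference of -0.12 beside 0.02 over all entries. In parental cells 2 rose and 2 fell (11.8%, against 4.55%), and in SG21 2 rose and 2 fell (11.8%, against 3.83%). In SGCTRL 0 passed with edgeR (against 2.33% of all entries) and 0 with DESeq2, with 9 at an unadjusted p under 0.05. Estimating the spread from the 2 SGCTRL groups alone passed 6. The shares of all entries that go with the 9 and the 6 were not counted, so nothing is read from them.

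Among the semaphorin and neuropilin genes, 3 of 6 fell with LPDS in SG12. For this and the other lists, the shares of all entries that rose or fell alone are not given. Nothing is read from the direction of the counts by list. NRP2, the paralogue of NRP1 and likewise a semaphorin co-receptor, fell by 1.33 ± 0.21 on the log2 scale (adjusted p = 2.64e-06), from 53.1 ± 1.36 to 21.1 ± 5.04 CPM. VEGFA, a ligand of both neuropilins, fell by 0.62 ± 0.10 in SG12 (adjusted p = 1.99e-06), from 880 ± 2.74 to 574 ± 88.0 CPM, and rose by 0.47 ± 0.10 in parental cells (adjusted p = 0.00154). SEMA5A, a transmembrane semaphorin, fell in SG12 by 0.48 ± 0.17 (adjusted p = 0.0391), a call lost under 4 of 14 settings, among them without SG12 FBS replicate 1 (adjusted p = 0.0597) and without SG12 LPDS replicate 3 (0.111, over 0.0117 to 0.128).

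Of the 5 netrin, slit and other guidance genes, 4 fell in SG12. The share of all entries that fell is not given, so nothing is read from that count. SLIT3, a secreted ligand of Robo receptors, had the smallest adjusted p of the 34 genes (1.88e-10), with a fall of 1.07 ± 0.11 from 312 ± 27.1 to 149 ± 4.53 CPM. Its levels in the other 3 lines were 138 to 182 CPM by group mean. UNC5C, a netrin receptor, gave -0.79 ± 0.28 (adjusted p = 0.034), SRGAP1, which acts downstream of Robo, -0.42 ± 0.16 (adjusted p = 0.0487), and RGMB, a ligand of neogenin, -0.31 ± 0.09 (adjusted p = 0.011). The call of UNC5C was lost without SG12 FBS replicate 2 or SG12 LPDS replicate 2 (adjusted p = 0.0753 and 0.0847, over 0.0202 to 0.119). That of SRGAP1 was lost without SG12 FBS replicate 2 or SG12 LPDS replicates 1 or 3 (0.189, 0.0557 and 0.0782, over 0.00839 to 0.189), and that of RGMB without a count filter (0.124, over 0.000336 to 0.124).

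The Wnt genes went both ways in SG12 with LPDS, with 2 of 13 higher and 2 lower. LEF1, a transcription factor at the end of the pathway, fell by 0.66 ± 0.12 (adjusted p = 4.43e-05) and the ligand WNT11 by 0.76 ± 0.14 (adjusted p = 5.53e-05). TCF7, of the same family as LEF1, rose by 1.05 ± 0.22 (adjusted p = 0.000214) and the receptor FZD4 by 0.99 ± 0.20 (adjusted p = 0.000202). TCF7 was read through the row named SKP1 (210 bases of exon overlap) and FZD4 through the row named PRSS23 (1399 bases). Reads of SKP1 and PRSS23 themselves in those rows were not separated from them. In SG21, FZD4 fell by 0.62 ± 0.17 (adjusted p = 0.0298), but this call was lost without any 1 of SG21 FBS replicates 1 and 3 and SG21 LPDS replicates 1, 2 and 3 (adjusted p up to 0.155), and with the library split term (0.284, over 0.0085 to 0.284). Of the ephrin and Eph genes 1 of 5 passed in SG12: ADAM10, a protease that sheds ephrins, rose by 1.78 ± 0.41 (adjusted p = 0.00091) from 2.63 ± 0.716 to 9.14 ± 3.94 CPM. Its row was shallow, with 5 to 10 reads in a SG12 FBS library and 18 to 44 in SG12 LPDS. The SG12 FBS mean lies under the 5.71 CPM floor. The 5 neurotrophin genes, among them the p75 receptor gene NGFR and the ligand NTF4, had log2 differences from -0.15 to 0.40, of which 2 had an unadjusted p under 0.05 and 0 passed with edgeR (adjusted p from 0.0713 to 0.828). DESeq2 was counted over the 5 lists together and passed 12 of the 34 genes in SG12.

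Against SGCTRL in FBS, 7 of the 34 pathway genes were higher and 7 lower in SG12 (41.2%, against 25.2% of all entries), and 1 was higher and 4 lower in SG21 (14.7%, against 14%). With the term for the library split these totals of 14 and 5 became 7 and 1, and with parental cells as control the SG21 total became 12. FZD4 was at 15.5 ± 2.66 CPM in SG12 and 66.4 ± 11.4 in SGCTRL, a log2 difference of -2.08 ± 0.19 (adjusted p = 2.67e-12). SLIT3 was 0.96 ± 0.11 higher (adjusted p = 1.63e-09), LEF1 0.93 ± 0.12 higher (adjusted p = 3.01e-08) and PRICKLE1, of the planar polarity branch of Wnt signalling, 0.79 ± 0.09 higher (adjusted p = 9.76e-10). In SG21, SEMA5A differed from SGCTRL by -1.4 ± 0.17 on the log2 scale, with 25.3 ± 3.49 against 66.6 ± 7.80 CPM (adjusted p = 3.51e-08). In LPDS, 2 of the 34 were higher and 4 lower in SG12 (17.6%, against 11.1%), and 1 higher and 5 lower in SG21 (17.6%, against 10.9%).

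**Figure D5:**
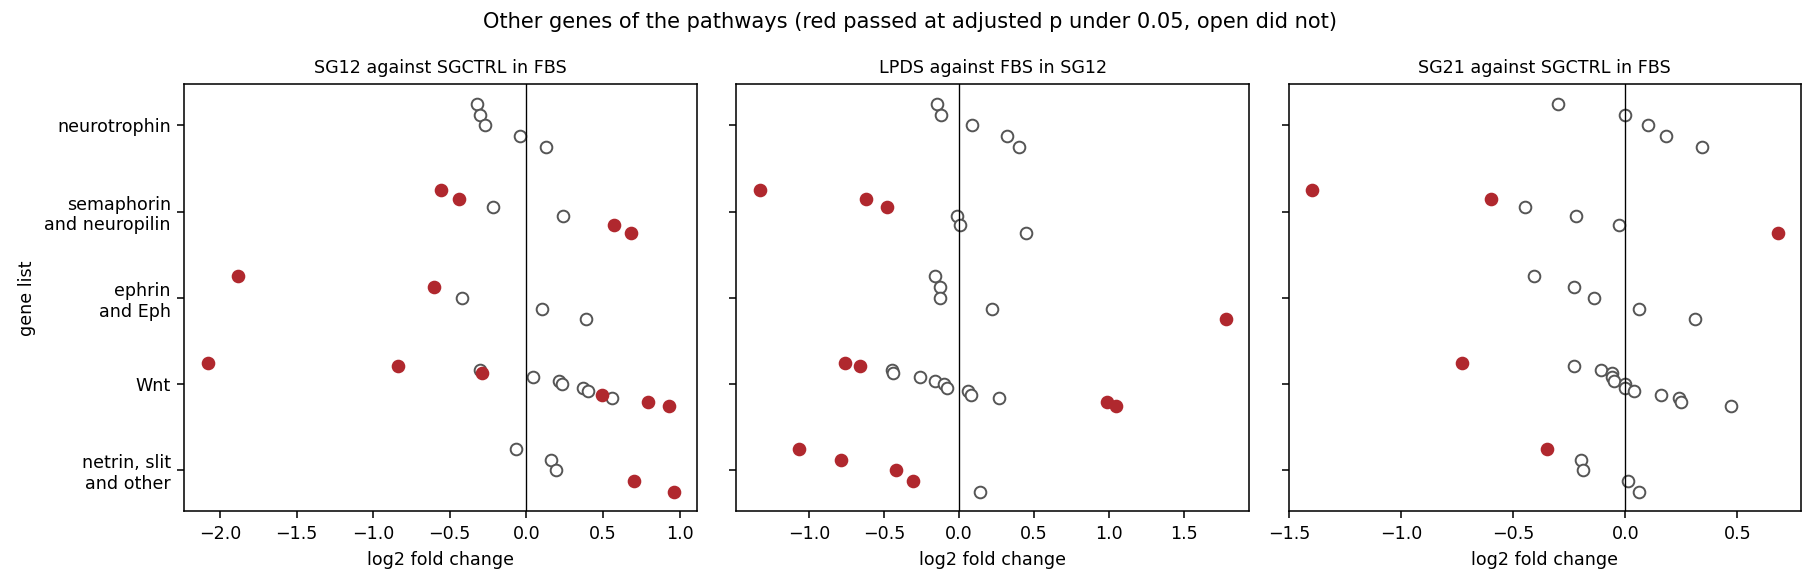
Log2 differences of the 34 genes of the 5 lists, by list (rows), in 3 comparisons (panels, each with its own axis). Points are red where the adjusted p was under 0.05 and open where it was not. In the middle panel, LPDS against FBS in SG12, 4 of the 5 netrin, slit and other guidance genes are red and to the left. The share of all entries that fell there is not given, so nothing is read from that count.

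Likeness to each gene was measured as the mean absolute difference of log2 CPM over the 8 group means, each row centred on its own mean, among 7126 entries. Among the 4 genes, NRP1 and NKD1 had the closest patterns (0.14), BDNF lay at 0.26 from NRP1 and 0.31 from NKD1, and EFNB2 at 0.43 to 0.54 from the other 3. The closest entry to BDNF was the row named HDAC9 (0.11), followed by FHOD3 read through TPGS2 (0.15) and the row named S100A1 (0.17). For NRP1 these were HEIH read through LINC00847 (0.12), SMIM2-AS1 read through SMIM2 (0.14) and ENSG00000225555 read through KCNE2 (0.21). For EFNB2 they were LMLN read through LMLN-AS1 (0.14), the row named KAZALD1 (0.16) and TRIM8-DT read through TRIM8 (0.19), and for NKD1 SMIM2-AS1 (0.18), the row named ENTR1 (0.21) and HEIH (0.24). S100A1 differed from BDNF within SG12: it was 0.89 above SGCTRL in FBS and changed by -0.09 with LPDS, against 2.00 and -0.81 for BDNF (log2). The lowest group means of the rows SMIM2 (1.83 CPM), KCNE2 (4.06), LMLN-AS1 (4.97), TRIM8 (5.15) and ENTR1 (1.5) were under the 5.71 CPM floor.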

How the data were processed

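RNA of 24 HGC27 libraries was measured. Per the labels' protocols, libraries were made from total RNA with Illumina's strand-keeping kit after removal of ribosomal RNA. What the authors deposited are counts of reads for each gene entry, not normalized, with 1 table per library. Per the submitters' processing notes, reads were processed with bcl2fastq and STAR on hg38. Tool versions, the counting program, its strand setting and its annotation are not given in the sources used here. Reads on no gene and ambiguous reads stayed out of library sizes.

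Entries were matched by name to GENCODE 29 (56752 of 61578). A gene was read through the entry of highest mean count whose exons overlap it on the opposite strand by at least 50 bases, with at least 80% of the overlap in 1 gene, and with a mean over 5.71 CPM. Such a reading assumes opposite-strand counting, and reads shared with overlapping genes cannot be separated. Tests used edgeR 4.0.16 in R 4.3.3 (TMM, filterByExpr, robust quasi-likelihood fit, a mean per group, all 24 libraries). Adjusted p-values are Benjamini-Hochberg over 12822 entries, passing under 0.05. Each SE is the absolute log2 difference over the square root of F. P-values rest on the spread between samples within a group, pooled over the 8 groups and moderated across entries. SG12 and SG21 are each a single line, so p-values do not measure the spread between knockout lines. CPM are per 1000000 reads on genes. The test was tested on simulated data with 200 changed genes. DESeq2 1.42.0 was an alternative, beside other scalings, filters, a replicate block, a library split term and leaving out each library. Named beside the 4 genes are up to 4 genes of each pathway list per comparison by lowest adjusted p among those passing, and 3 most alike entries per gene; of these the text gives those its results turn on. The genes and lists were chosen with earlier results of these data known. Tests of LPDS against FBS had been planned for the 4 genes in SG12 and over the 4 lines too. Since SG12 FBS libraries took part in the choice, these are given as values alone. Libraries of the other lines entered it as well, so p-values of the 4 genes in those lines are not independent of it. NRP1 and NKD1 promoters, and proteins, were not used here.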

Additional observations from a re-analysis of the deposited data

Results flagged for a closer look

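The LPDS and FBS libraries of BDNF were separated in opposite directions in 2 lines. In parental cells all 3 LPDS libraries (39.5 to 48.9 CPM) were above all 3 FBS libraries (27.9 to 36.3 CPM), and in SG12 all 3 LPDS libraries (65.9 to 88.9 CPM) were below all 3 FBS libraries (121 to 154 CPM). The 2 log2 responses, 0.55 and -0.81, lie 1.36 apart. The difference was not tested, because the SG12 FBS libraries took part in the choice of the gene.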

How the results depend on the processing

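The 48 values of the 4 genes were recomputed under other settings, which gave 784 values in all, of which 742 counted as the same. Values of LPDS against FBS counted so if they stayed on the same side of the threshold, and kept their sign where either adjusted p was under 0.05. The line comparisons and response differences counted so if they moved by less than the spread. Values that passed under neither setting could change sign and still count. NKD1 with LPDS in parental cells did so, from -0.10 to 0.21 without FBS replicate 2. The tally scored LPDS against FBS in SG12 and over the 4 lines by adjusted p, although these are given above without a test. Libraries of the other lines entered the choice of the genes as well. Nothing is therefore read from the tally, and no call is made from an adjusted p of the 4 genes below. The labels do not say whether replicate numbers pair the samples. After group means were taken off, same-numbered FBS and LPDS libraries of a line correlated at -0.13 to 0.18, with 1 of 12 over 0.1. With 3 libraries in a group this cannot decide whether they were paired. With a replicate block, BDNF in parental cells came to 0.56 (adjusted p = 0.0426, over 0.0426 to 0.257), the SGCTRL pathway count with LPDS to 1, and no other count moved by over 1.5 times. Log2 values follow, and the causes of these shifts were not tested.

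With a term for the library split, BDNF in parental cells was 0.55 with LPDS (adjusted p = 0.0487, over 0.0426 to 0.257), and NKD1 over the 4 lines -0.28. With that term, SG12 against SGCTRL in FBS was 2.21 for BDNF, 2.17 for NRP1 and 0.67 for EFNB2, and in LPDS 1.29 for NRP1 and 0.11 for EFNB2, which turned positive. SG21 against SGCTRL in FBS was -0.14 for BDNF, -1.37 for EFNB2 and -0.77 for NKD1. SGCTRL against parental cells was -0.02 for BDNF (turned negative) and 0.12 for EFNB2 in FBS, and -0.62 for NRP1 and 0.18 for EFNB2 in LPDS.

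With parental cells as control, SG12 in FBS was 2.19 for BDNF, 0.79 for EFNB2 and 1.48 for NKD1, and in LPDS 0.67 for NRP1, 0.29 for EFNB2 (turned positive) and 0.51 for NKD1. SG21 in FBS was -0.16 for BDNF, -1.26 for EFNB2 and -1.41 for NKD1, and in LPDS -1.23 for NRP1, -1.12 for EFNB2 and -1.38 for NKD1. The NRP1 response of SG12 minus that of parental cells was -1.23. VEGFA and RGMB in SG12 LPDS turned from -0.31 and -0.35 to 0.04 and 0.08, and RGMB in SG21 FBS from -0.35 to 0.16.

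Leaving out each library in turn, the LPDS response ran from 0.48 to 0.66 for BDNF in parental cells and from -0.57 to -0.21 for NRP1 in SG21. SG12 against SGCTRL in FBS ran from 1.98 to 2.15 for BDNF, 1.98 to 2.13 for NRP1, 0.39 to 0.60 for EFNB2 and 2.13 to 2.43 for NKD1, and SG21 from -0.75 to -0.68 for NKD1. SGCTRL against parental cells in LPDS ran from 0.40 to 0.45 for EFNB2. The response of SG12 minus SGCTRL ran from -1.04 to -0.88 for NRP1, -0.75 to -0.55 for EFNB2 and -1.40 to -1.10 for NKD1.

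Counts of pathway genes passing with LPDS ran from 1 to 6 in parental cells (main 4), being 2 without FBS replicate 2 or LPDS replicate 1 and 1 without LPDS replicate 3. In SG21 they ran from 0 to 3 (main 4), being 0 without FBS replicate 1 or LPDS replicate 2 and 1 without FBS replicate 3 or LPDS replicate 3. Against SGCTRL in LPDS they ran from 3 to 6 in SG12 (main 6; 3 without SGCTRL replicate 1) and 3 to 5 in SG21 (main 6; 3 without SGCTRL replicate 1 or 2). With the spread from the compared groups alone, the LPDS counts were 1 in parental cells, 6 in SGCTRL and 2 in SG21, and the counts against SGCTRL were 11 for SG12 in LPDS and 8 for SG21 in FBS. The split term gave 0 for SG21 with LPDS, 7 and 1 for SG12 in FBS and LPDS and 1 for SG21 in FBS. No filter gave 1 in SGCTRL, DESeq2 gave 7 in SG21, and parental cells as control gave 12 for SG21 in FBS. Of 49 calls of single pathway genes, 32 were lost under at least 1 of their settings. Depth of 2399212 to 5543678 reads on genes limits rows with few reads, such as those named BDNF, NRP1 and EFNB2.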
